A study of Mus musculus with 4 samples.

Results

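The genes described here encode 10 surface ligands and ligand receptors through which antigen-presenting cells stimulate or restrain T cells: Cd80, Cd86, Cd40, Cd83, Cd274, Pdcd1lg2, Icosl, Tnfsf4, Tnfsf9 and Cd70. They were chosen by symbol, all 10 were found among the 31053 genes of the deposited matrix, and each had at least 46 unique molecular identifiers (UMIs, counts of captured transcripts) in the cells kept. RNA of single cells was sequenced from the inguinal lymph nodes that drained B16F10 tumours, a transplantable melanoma, grown in both upper anterior thighs of C57BL/6J mice. Treated animals (2 mice) drank indoximod at 2 mg/ml and were injected intraperitoneally with ibrutinib at 350 ug daily, both from day 9, and with cyclophosphamide at 150 mg/kg on day 10. Control animals (2 mice) carried the same tumours and were left untreated, and nodes of all 4 mice were taken 48 hours after the cyclophosphamide dose. Indoximod acts on the tryptophan-degrading IDO pathway, ibrutinib inhibits the kinase BTK, and cyclophosphamide is an alkylating agent. The age of the mice is not given in the sources used here. The cell barcodes carry a library number from 1 to 4 that is not tied to a mouse, so treated and control mice are not compared here. Levels that the comparisons turn on are given library by library, and the others as sums over the 4 libraries.

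A T cell that meets its antigen also reads a second set of signals on the presenting cell. CD80 and CD86 bind CD28, which promotes activation, and CTLA-4, which restrains it, while the products of Cd274 (PD-L1) and Pdcd1lg2 (PD-L2) bind the inhibitory receptor PD-1. CD40 receives help from CD40 ligand on T cells, ICOS ligand binds ICOS, and the TNF family ligands encoded by Tnfsf4 (OX40 ligand), Tnfsf9 (4-1BB ligand) and Cd70 bind OX40, 4-1BB and CD27. CD83 marks mature dendritic cells and activated lymphocytes, where it is known to keep MHC class II and CD86 on the surface.

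Cells were sorted into 21 classes with marker panels that held none of the 10 genes. Each class bears the name of the panel its cells passed, and the name goes no further than those genes. Of 30824 barcodes, 26096 passed the cell filter: 5667, 5758, 6335 and 8336 in libraries 1 to 4, with median depths between 5229 and 5558 UMIs. Cells that passed panels of more than 1 lineage, or tied between panels outside the T and B lineages, belong to no class (2102). The same holds for 3526 cells that met no gate, or passed the T lineage panel but no T class gate. T lineage cells with transcripts of both Cd4 and Cd8 genes, or of neither, are among them unless another T gate took them. In all, 86 barcode sequences occurred in more than 1 library. The mature dendritic cell class (mature DC) held 410 cells. Its Ccr7 level, a homing receptor gene outside the panel, was 1023 CPM (UMIs of the gene per 1000000 UMIs of the class), against 86.5 CPM in resting B cells. The 6 B lineage panel genes together had 17.6 to 31.3 CPM over the libraries in mature DC, against 7333 to 7675 CPM in resting B cells, and none of the 6 was at 0 in either class. Because each level is a share of a class's UMIs, a gene can be high or low either in every cell or in a part of the cells. Intervals are exact at 95% (Poisson for levels, Clopper-Pearson for ratios) and cover counting error only, and a count of 0 allows up to 3 counts. Transcripts were counted near their 3′ ends, so levels are compared between classes for 1 gene and not between genes.

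Promoter sequences were at hand for 4 of the 10 genes (Cd80, Cd274, Pdcd1lg2 and Icosl). Cd274 and Pdcd1lg2 are shown because they lie 22.8 kb apart on chromosome 19 and were both higher in receptor-activated and regulatory T cells, and Cd80 because it had the larger mature DC ratio of the CD28 ligand genes. The windows run from 250 bases before to 50 bases after the RefSeq start, in build GRCm38.p6, plus strand, and are Cd274 at chr19:29367188-29367487, Pdcd1lg2 at chr19:29410669-29410968 and Cd80 at chr16:38458683-38458982. Capitals mark matches, on either strand, to a loose NF-kappaB motif (GGGANNNNCC), a strict NF-kappaB motif (GGGANNTTCC), an interferon regulatory factor motif (GAAANNGAAA), a STAT motif (TTCNNNGAA) or an AP-1 motif (TGANTCA).
Cd274: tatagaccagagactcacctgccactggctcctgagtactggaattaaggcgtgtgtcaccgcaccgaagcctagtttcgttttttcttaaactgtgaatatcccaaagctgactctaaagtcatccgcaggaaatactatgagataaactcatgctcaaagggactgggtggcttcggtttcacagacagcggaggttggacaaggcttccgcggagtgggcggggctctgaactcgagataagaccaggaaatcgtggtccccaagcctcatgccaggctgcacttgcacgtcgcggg
Pdcd1lg2: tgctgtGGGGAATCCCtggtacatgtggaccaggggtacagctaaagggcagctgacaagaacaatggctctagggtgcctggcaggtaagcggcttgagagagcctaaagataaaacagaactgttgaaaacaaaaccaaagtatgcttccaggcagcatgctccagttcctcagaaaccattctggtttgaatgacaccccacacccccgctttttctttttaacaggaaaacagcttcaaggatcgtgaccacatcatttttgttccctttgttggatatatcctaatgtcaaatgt
Cd80: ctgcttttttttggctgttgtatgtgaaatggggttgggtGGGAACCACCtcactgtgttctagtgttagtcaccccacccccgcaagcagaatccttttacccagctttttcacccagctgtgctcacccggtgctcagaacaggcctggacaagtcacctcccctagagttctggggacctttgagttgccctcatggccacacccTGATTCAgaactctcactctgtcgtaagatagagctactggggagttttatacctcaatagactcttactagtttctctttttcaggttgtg
The Pdcd1lg2 window held 1 match, to the loose NF-kappaB motif on the minus strand. The Cd80 window held 1 match to the loose NF-kappaB motif and 1 to the AP-1 motif, on the plus strand and not overlapping. The Cd274 window held none of the 5 motifs, which says only that these letters are not in these 300 bases. Among 32851 promoter windows of the same length, 20.7% held the loose and 1.47% the strict NF-kappaB motif, 3.44% the interferon regulatory factor motif, 8.30% the STAT motif and 7.81% the AP-1 motif, so a loose NF-kappaB match is common. Per the annotation of the build used for the counts (mm10), Cd274 is at chr19:29367455-29388095, Pdcd1lg2 at chr19:29410919-29471161 and Cd80 at chr16:38455561-38496335, all on the plus strand.

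Across the 19 classes with at least 30 cells, the genes peaked in different cells. Mature DC had the highest level of Cd80 (25.9 CPM, 95% interval 21.0 to 31.6), Cd40 (198 CPM, 184 to 213), Icosl (124 CPM, 113 to 135) and Cd70 (6.68 CPM, 4.32 to 9.86). For Cd40 and Icosl this interval did not overlap that of the class next in order, monocytes for Cd40 at 113 CPM and resting B cells for Icosl at 85.3 CPM. For Cd80 and Cd70 it did overlap, with monocytes at 11.3 CPM and dividing T cells at 3.15 CPM next. Cells of mixed lineages, which belong to no class, held 28.3% of Cd80 and 36.6% of Cd70 counts. Mature DC held 34.3% and 35.2%. The cDC2 class (conventional type 2 dendritic cells), with only 8 cells, was left out of this order. It had 4 Cd80 counts, at 36.9 CPM (10.0 to 94.4), and 16 Icosl counts. Receptor-activated B cells, gated on early genes of antigen receptor signalling, had the highest Cd83 level (420.1 CPM, 376 to 468), above mature DC at 273 CPM (256 to 289.9) and germinal centre B cells at 135 CPM.

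**Figure D1:**
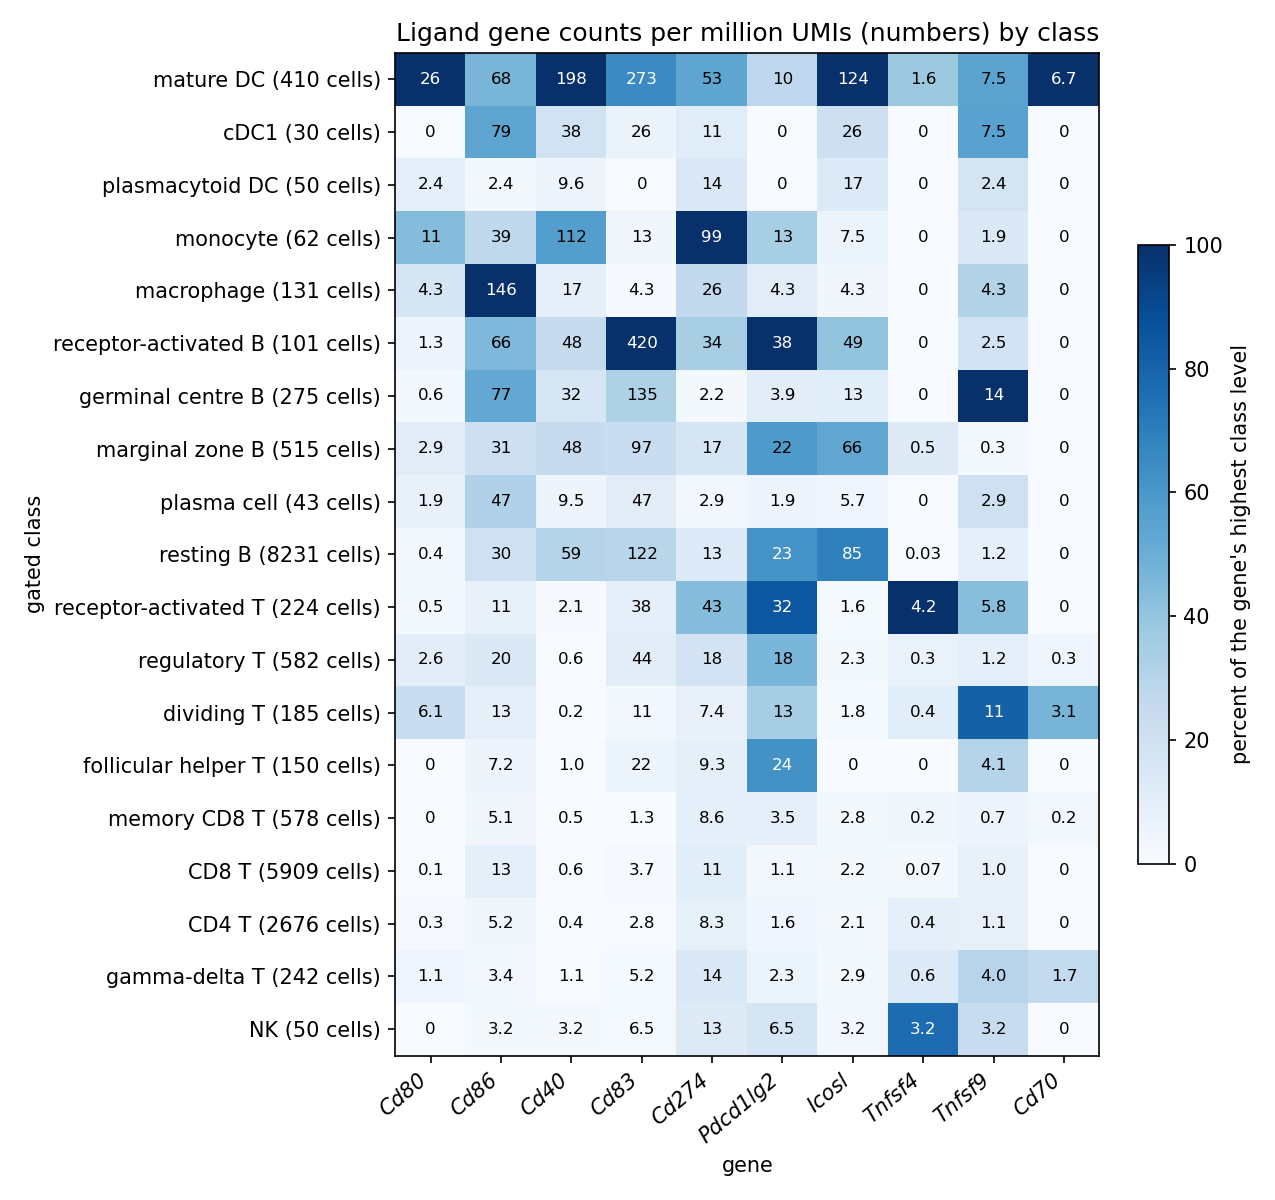
Level of the 10 genes in the 19 classes with at least 30 cells. Printed numbers are CPM summed over the 4 libraries, 0 means no count, and the shade gives the percent of the gene's highest class level. Cd80, Cd40, Icosl and Cd70 are darkest in mature DC, Cd83 and Pdcd1lg2 in receptor-activated B cells, Cd274 in monocytes and Tnfsf9 in germinal centre B cells.

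The PD-1 ligand genes and the remaining members peaked elsewhere. Cd274 was highest in monocytes at 99.4 CPM (74.5 to 130), above mature DC at 53.5 CPM and receptor-activated T cells at 43.4 CPM, which overlapped each other. Pdcd1lg2 was highest in receptor-activated B cells (38.0 CPM) and receptor-activated T cells (32.3 CPM), and intervals of neighbouring classes overlapped all the way down to mature DC at 10.4 CPM, the ninth in order. Cd86 was highest in the macrophage class at 146 CPM (101 to 204), whose 131 cells had a median of only 1113 UMIs, followed by cDC1 (conventional type 1 dendritic cells), germinal centre B cells, mature DC and receptor-activated B cells between 79.0 and 65.8 CPM, with overlapping intervals. Tnfsf9 was highest in germinal centre B cells (13.6 CPM, 10.1 to 18.0) and dividing T cells (11.0 CPM, 8.15 to 14.6), which overlapped. Tnfsf4 was near the limit of detection everywhere, with 8 counts in receptor-activated T cells, 6 each in mature DC and CD4 T cells, and 46 in all cells kept.

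Mature DC were set against resting B cells, the largest class, to show which ligand genes separate the 2 classes. Ratios were taken within each library, and a gene was called when each library in which the classes together held 10 or more of its UMIs showed a difference of 1.5-fold or more, all the same way. At least 3 libraries had to qualify, or 2 where only 2 held 10 cells of both classes. This is a rule of size and not a significance test. By it 3 of the 8 genes that could be tested, Cd80, Cd40 and Cd274, were higher in mature DC and none was lower, beside 17.7% higher and 19.5% lower among all 10784 genes tested.

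Cd80, a CD28 ligand gene, had 15.7, 9.19, 25.8 and 40.0 CPM in mature DC of libraries 1 to 4, against 0.526, 0, 0.250 and 0.837 CPM in resting B cells. All 4 mature DC values lay above all 4 resting B values, and the log2 ratio over all libraries was 5.85 (counting interval 5.06 to 6.74). Resting B cells held 15 Cd80 counts in all, and the 0 of library 2 allows up to 0.426 CPM. Only libraries 1, 3 and 4 had the 10 counts the rule needs, so Cd80 could not be called without library 1, 3 or 4. Cd86, the other CD28 ligand gene, had 39.3, 38.1, 90.9 and 82.9 CPM in mature DC, against 28.8, 24.8, 33.5 and 32.7 CPM in resting B cells. The groups did not overlap, but the ratio of library 1 was below 1.5-fold (log2 0.45), so Cd86 was not called, at a log2 ratio of 1.17 (0.97 to 1.37). Without library 1 it was called higher.

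Cd40, which receives T cell help, had 239, 277, 204 and 132 CPM in mature DC, against 61.2, 58.3, 62.8 and 56.5 CPM in resting B cells. The lowest mature DC library was still above every resting B library, and the log2 ratio was 1.74 (1.61 to 1.86). Cd83 had 311, 240.2, 266 and 278 CPM in mature DC, against 169, 169, 89.6 and 81.5 CPM in resting B cells. All mature DC libraries were higher, yet library 2 gave a log2 ratio of 0.50, short of the 1.5-fold needed, and the ratio over all libraries was 1.16 (1.06 to 1.26). Without library 2, or with cells thinned to 1500 UMIs, Cd83 was called higher.

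The PD-1 ligand genes went opposite ways between these classes. Cd274 had 31.4, 31.5, 63.0 and 69.1 CPM in mature DC, against 14.8, 11.6, 12.3 and 14.0 CPM in resting B cells, a log2 ratio of 2.01 (1.76 to 2.25). Pdcd1lg2 had 11.0, 5.25, 16.5 and 8.72 CPM in mature DC, against 23.1, 23.1, 23.6 and 23.2 CPM in resting B cells. Every mature DC library was below every resting B library, with a log2 ratio of -1.16 (-1.66 to -0.69), and library 3 missed the 1.5-fold mark at -0.52, so the gene was not called. Pdcd1lg2 was called lower without library 3, and with 1 more panel gene required per gate, which also called Tnfsf9 higher.

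Icosl, the ICOS ligand gene, had 181, 147, 90.9 and 107 CPM in mature DC, against 81.6, 81.3, 93.1 and 84.8 CPM in resting B cells. The groups overlapped, since library 3 of mature DC lay below library 3 of resting B cells, and Icosl was not called (log2 0.53, 0.39 to 0.68). Among the TNF family ligands, Tnfsf9 had 1.57, 18.4, 9.30 and 2.91 CPM in mature DC, against 1.58, 1.85, 0.625 and 1.02 CPM in resting B cells, from 28 counts against 41. Libraries 2 to 4 were higher in mature DC and library 1 was not, and the gene was called only without library 1 or with the stricter gate. Cd70 had 5, 10, 5 and 5 counts in mature DC libraries, against 0 counts in all 8231 resting B cells, too few libraries with 10 counts to be tested. Against a floor of 3 counts over the group its log2 ratio was at least 6.22.

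**Figure D2:**
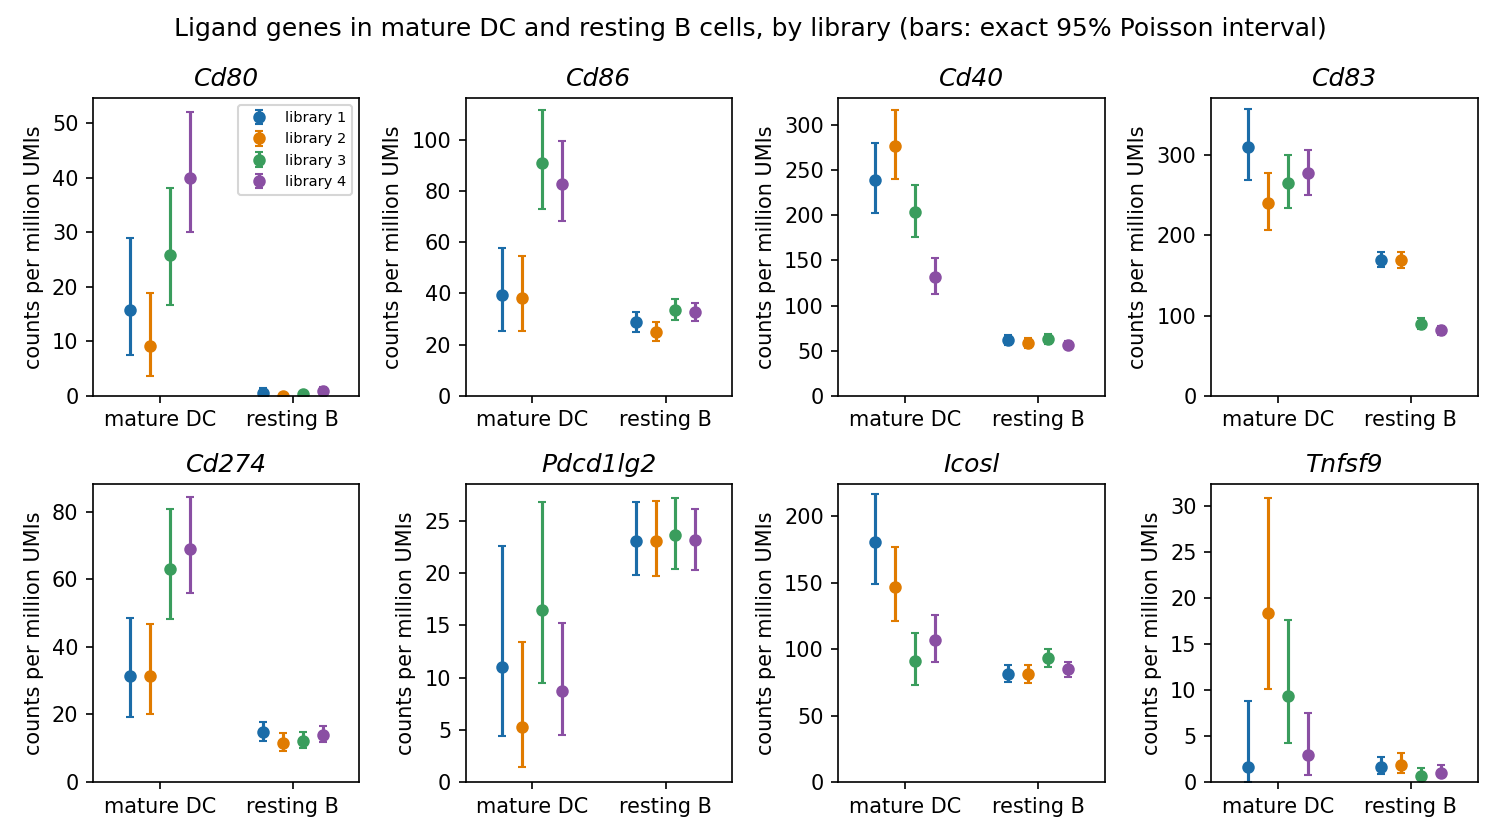
Level of 8 genes in mature DC (left) and resting B cells (right), in CPM, with each point 1 library and bars the exact 95% Poisson interval. Every mature DC point lies above every resting B point for Cd80, Cd86, Cd40, Cd83 and Cd274. Pdcd1lg2 is lower in mature DC, and Icosl and Tnfsf9 overlap.

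Shares of cells with a UMI were compared after thinning each cell to 1500 UMIs, since mature DC were deeper (median 8234 UMIs, against 3707 UMIs in resting B cells). Of the cells, 380 of 410 mature DC and 8090 of 8231 resting B cells were deep enough. At 1500 UMIs, Cd40 was seen in 18.2% of mature DC, against 8.13% of resting B cells, and Cd83 in 29.5% of mature DC, against 14.2% of resting B cells. Without thinning the shares were 47.8% and 68.3% in mature DC for Cd40 and Cd83, against 20.3% and 28.9% in resting B cells. CD4 T cells, which should lack Cd40, had a Cd40 UMI in 0.224% and a Cd83 UMI in 1.16% of cells at a median of 5695 UMIs, below the unthinned shares in both other classes.

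Mature DC were also set against other myeloid classes, where few cells limit what can be seen. Against monocytes (62 cells), 3 of 6 genes tested were higher in mature DC, namely Cd80, Cd83 and Icosl, and none lower, beside 11.9% higher and 13.4% lower among all genes tested. Cd83 had 1020 counts in mature DC, against 7 in monocytes, at a log2 ratio of 4.38 (3.33 to 5.69), and Icosl had 462 counts against 4, at 4.04 (2.68 to 5.92). The Cd80 ratio rested on 97 counts in mature DC, against 6 in monocytes (1.20, 0.03 to 2.69), and was called neither without library 1, 3 or 4 nor with thinned cells. Cd274 ran the other way in every library without being called, at 31.4, 31.5, 63.0 and 69.1 CPM in mature DC, against 74.0, 72.2, 174 and 81.4 CPM in monocytes, a log2 ratio of -0.90 (-1.34 to -0.43), and was called lower without library 4. Cd40 had 239, 277, 204 and 132 CPM in mature DC, against 53.8, 126, 151 and 129 CPM in monocytes, and was not called.

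Only libraries 1 and 3 held at least 10 cDC1, 10 and 11 cells. Here 5 of 6 genes tested (Cd80, Cd40, Cd83, Cd274 and Icosl) were higher in mature DC, beside 31.1% higher and 15.5% lower among all genes tested. Cd83 had 455 counts in mature DC of these libraries, against 3 in cDC1 (log2 4.12, 2.57 to 6.41). Cd86 differed little, at 70.4 CPM in mature DC and 75.9 CPM in cDC1, and its log2 ratio of -0.11 had an interval of -0.91 to 0.81. Cd80 had 35 counts in mature DC, against 0 in cDC1. At the floor of 3 counts its log2 ratio is at least 0.42, short of the 0.58 that stands for 1.5-fold. With thinned cells the Cd80 ratio turned to -0.42 (1 count added to each class). With a fold of 2 required, 3 genes were called.

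Against CD4 T cells all 7 genes tested were higher in mature DC, beside 21.0% higher and 17.6% lower among all genes tested. CD4 T cells held transcripts of some receptors for these ligands, such as Cd28 at 184 CPM, and few of others, such as Pdcd1 at 2.8 CPM. The log2 ratios were 9.01 (7.88 to 10.5) for Cd40, 6.66 (5.26 to 8.57) for Cd80, 6.63 (6.19 to 7.11) for Cd83 and 5.87 (5.36 to 6.43) for Icosl. They were smaller for Cd86 at 3.71 (3.34 to 4.08), Pdcd1lg2 at 2.70 (1.94 to 3.49) and Cd274 at 2.68 (2.36 to 3.01). Cd80 was called in 3 libraries and lost its call without library 1, 3 or 4.

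B cell classes differed from one another in these genes as well. Germinal centre B cells, the dividing B cells of an antibody response, could be compared only in libraries 1 and 2, with 132 cells each, since libraries 3 and 4 held 5 and 6. Of 7 genes tested, Cd86 and Tnfsf9 were higher and Cd40, Cd274, Pdcd1lg2 and Icosl lower in germinal centre B cells than in resting B cells, beside 19.8% higher and 21.7% lower among all genes tested.

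Cd86 had 88.0 and 67.6 CPM in germinal centre B cells of libraries 1 and 2, against 28.8 and 24.8 CPM in resting B cells, a log2 ratio of 1.53 (1.30 to 1.75). Tnfsf9 had 10.7 and 17.1 CPM in germinal centre B cells, against 1.58 and 1.85 CPM in resting B cells, at 3.04 (2.31 to 3.79). For both genes the groups did not overlap. The ligand genes that were lower included Icosl, at 14.9 and 10.5 CPM in germinal centre B cells, against 81.6 and 81.3 CPM in resting B cells (-2.70, -3.16 to -2.26). Pdcd1lg2 had 3.57 and 3.85 CPM in germinal centre B cells, against 23.1 and 23.1 CPM in resting B cells (-2.64, -3.56 to -1.85), and Cd274 had 8 counts against 195 (-2.54, -3.77 to -1.53). Cd40 was lower by less, at 33.9 and 30.8 CPM in germinal centre B cells, against 61.2 and 58.3 CPM in resting B cells (-0.89, -1.19 to -0.61). Cd83, at 145 and 133 CPM in germinal centre B cells, against 169 and 169 CPM in resting B cells, was not called.

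In receptor-activated B cells (101 cells) only Cd83 of 7 genes tested was called, higher, beside 2.30% higher and 4.18% lower among all genes tested. Cd83 had 567, 335, 325 and 540 CPM in receptor-activated B cells, against 169, 169, 89.6 and 81.5 CPM in resting B cells, a log2 ratio of 1.78 (1.62 to 1.95). All 4 receptor-activated values lay above all 4 resting values. Other lists moved with this class: 12 AP-1 and heat shock genes, a list chosen after seeing the data, together had 2747, 1825, 2568 and 3551 CPM in receptor-activated B cells, against 1133, 1205, 1392 and 1393 CPM in resting B cells. That list includes Nr4a1, a panel gene of the receptor-activated B gate, so the gate itself can raise it. The 7 mature DC panel genes together had 243 to 530 CPM over the libraries in receptor-activated B cells, with 4 genes at 0. In resting B cells they had 92.4 to 162 CPM, with none at 0. The part of both lists in the Cd83 level was not tested. Cd86 had 72.9, 33.5, 105 and 65.6 CPM in receptor-activated B cells, against 28.8, 24.8, 33.5 and 32.7 CPM in resting B cells, and library 2 kept it from being called (1.12, 0.69 to 1.52). Without library 2 it was called higher. Cd274 had a log2 ratio of 1.36 (0.74 to 1.92) and was called without library 3, and Icosl one of -0.79 (-1.29 to -0.34) and was called lower without library 4.

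Marginal zone B cells (515 cells) differed little from resting B cells. Of 7 genes tested only Tnfsf9 was called, lower, from 1 count against 41 (log2 -2.22, -7.56 to 0.34), beside 1.10% higher and 0.598% lower among all genes tested. That call did not hold without library 1, 2 or 4, and its direction turned with the stricter gate (log2 0.74) and with thinned cells (1.28, both with 1 count added to each class). Cd83 had 149, 138, 68.6 and 70.6 CPM in marginal zone B cells, against 169, 169, 89.6 and 81.5 CPM in resting B cells, so libraries 1 and 2 were the higher ones in both classes.

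**Figure D3:**
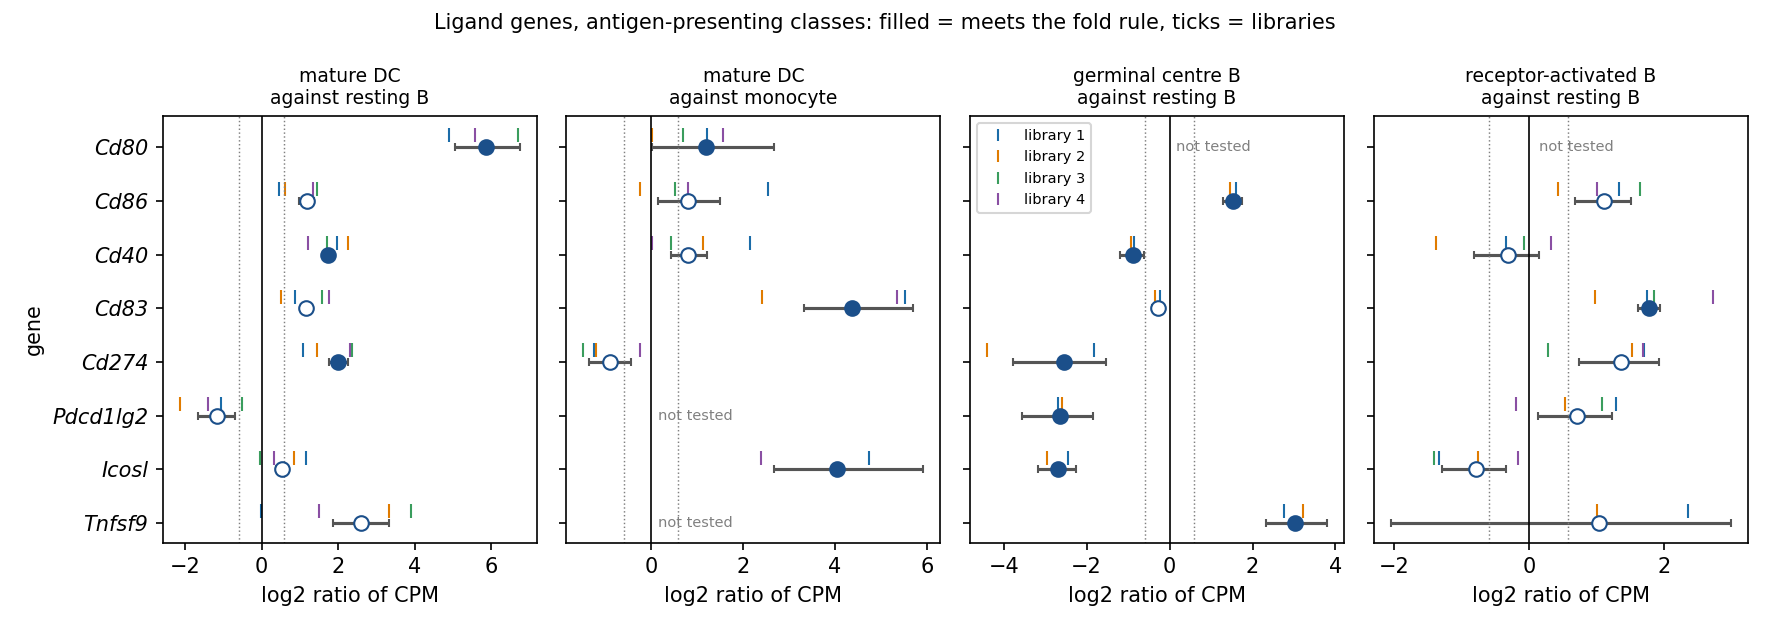
Log2 ratio of CPM over all libraries used, with bars the counting interval and ticks the single libraries (those with counts in both classes, also where a library had under 10 counts). Filled points meet the fold rule and dotted lines mark 1.5-fold. Mature DC have filled points right of 0 for Cd80, Cd40 and Cd274 against resting B cells. Germinal centre B cells have filled points right of 0 for Cd86 and Tnfsf9 and left of 0 for Icosl, Pdcd1lg2, Cd274 and Cd40.

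T cells, on the receiving side of most of these signals, also held transcripts of several ligand genes. In CD4 T cells, Cd79a stood at 0.279%, Cd79b at 0.610% and Cd40 at 0.646% of their resting B levels. Cd79a and Cd79b are B lineage panel genes, and T cells with 2 or more such genes were left out. This holds the Cd79a and Cd79b shares down, so they cannot measure free B cell RNA. Cd40 is in no panel, but leaving out those cells can lower its share too. In CD4 T cells Cd86 stood at 17.3%, Cd274 at 62.6%, Cd83 at 2.25% and Icosl at 2.47% of the resting B level. Cd86 and Cd274 were also high in myeloid classes. The part of free RNA from B cells or myeloid cells in these values was not tested.

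Receptor-activated T cells (224 cells) had more of both PD-1 ligand genes and of Cd83 than CD4 T cells: 3 of 4 genes tested were higher, beside 3.36% higher and 2.16% lower among all genes tested. The receptor-activated gate set no Cd4 or Cd8 condition, so this class can hold CD8 cells, while CD4 T cells were gated on Cd4 without Cd8 genes. The part of this make-up in the ratios was not tested. Cd274 had 44.4, 39.6, 40.9 and 48.0 CPM in receptor-activated T cells, against 7.33, 5.81, 11.6 and 8.08 CPM in CD4 T cells, a log2 ratio of 2.39 (1.97 to 2.80). Pdcd1lg2 had 38.4, 45.9, 23.0 and 21.1 CPM in receptor-activated T cells, against 1.09, 2.32, 1.73 and 1.35 CPM in CD4 T cells, at 4.34 (3.64 to 5.07). Cd83 had 32.3, 41.7, 17.9 and 55.7 CPM in receptor-activated T cells, against 3.26, 4.07, 1.24 and 2.69 CPM in CD4 T cells, at 3.79 (3.23 to 4.37). For all 3 genes every receptor-activated library lay above every CD4 T library. Cd79a stood at 5.30 CPM in receptor-activated T cells, against 7.29 CPM in CD4 T cells, and the 6 B lineage panel genes together at 25.0 to 36.3 CPM over the libraries, against 17.5 to 38.3 CPM. T cells with 2 or more of these 6 genes were left out of both classes, which holds these values down.

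Regulatory T cells (582 cells), which restrain immune responses, were higher than CD4 T cells in all 4 genes tested, beside 6.74% higher and 1.51% lower among all genes tested. Cd83 had 47.4, 42.9, 46.5 and 39.2 CPM in regulatory T cells, against 3.26, 4.07, 1.24 and 2.69 CPM in CD4 T cells, a log2 ratio of 4.00 (3.50 to 4.52). Pdcd1lg2 had 22.0, 11.9, 12.2 and 23.5 CPM in regulatory T cells, against 1.09, 2.32, 1.73 and 1.35 CPM in CD4 T cells, at 3.46 (2.76 to 4.19). Neither gene overlapped between the classes.

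Cd86 had 17.4, 10.7, 29.4 and 23.5 CPM in regulatory T cells, against 7.06, 4.07, 5.19 and 4.71 CPM in CD4 T cells (1.95, 1.46 to 2.43). Cd274 had 16.2, 13.1, 25.7 and 17.9 CPM in regulatory T cells, against 7.33, 5.81, 11.6 and 8.08 CPM in CD4 T cells (1.13, 0.67 to 1.57). With 1 more panel gene required, Cd86 and Cd274 were no longer called. The sum of the monocyte panel moved with this class: its 7 genes together had 53.6 to 124 CPM over the libraries in regulatory T cells, with 2 genes at 0, against 13.7 to 24.7 CPM in CD4 T cells, with 1 gene at 0. Which of the 7 genes, Ccr2 among them, carried the sum was not examined, so it need not be RNA of myeloid cells. The 6 B lineage panel genes together had 30.6 to 56.1 CPM in regulatory T cells, against 17.5 to 38.3 CPM in CD4 T cells. T cells with 2 or more of these 6 genes were left out of both classes. The part of the monocyte and B lineage panel genes in the Cd86 and Cd274 values was not tested.

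Dividing T cells (185 cells, median 20207 UMIs) were higher than CD4 T cells in Cd83, Pdcd1lg2 and Tnfsf9 of 6 genes tested, beside 20.1% higher and 8.53% lower among all genes tested. The dividing gate set no Cd4 or Cd8 condition and came before the regulatory T gate, so this class can hold CD8 and regulatory cells. Ctla4 stood at 91.7 CPM in dividing T cells, against 6.72 CPM in CD4 T cells. The part of this make-up in the ratios was not tested. Tnfsf9 had 23.3, 13.3, 6.15 and 5.02 CPM in dividing T cells, from 49 counts, against 17 counts in CD4 T cells (log2 3.34, 2.52 to 4.23), with libraries 1 and 2 the highest, and its call was lost without library 1, 2 or 3. The 7 monocyte panel genes together had 49.96 to 93.7 CPM over the libraries in dividing T cells, with 4 genes at 0, against 13.7 to 24.7 CPM in CD4 T cells, with 1 gene at 0, and their part in these values was not tested. Cd80 and Cd70, too sparse to be tested by the rule, had 27 and 14 counts in dividing T cells, against 4 and 0 counts in CD4 T cells. The Cd80 log2 ratio was 4.57 (3.05 to 6.54), and that of Cd70 was at least 4.04 against a floor of 3 counts over the group.

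**Figure D4:**
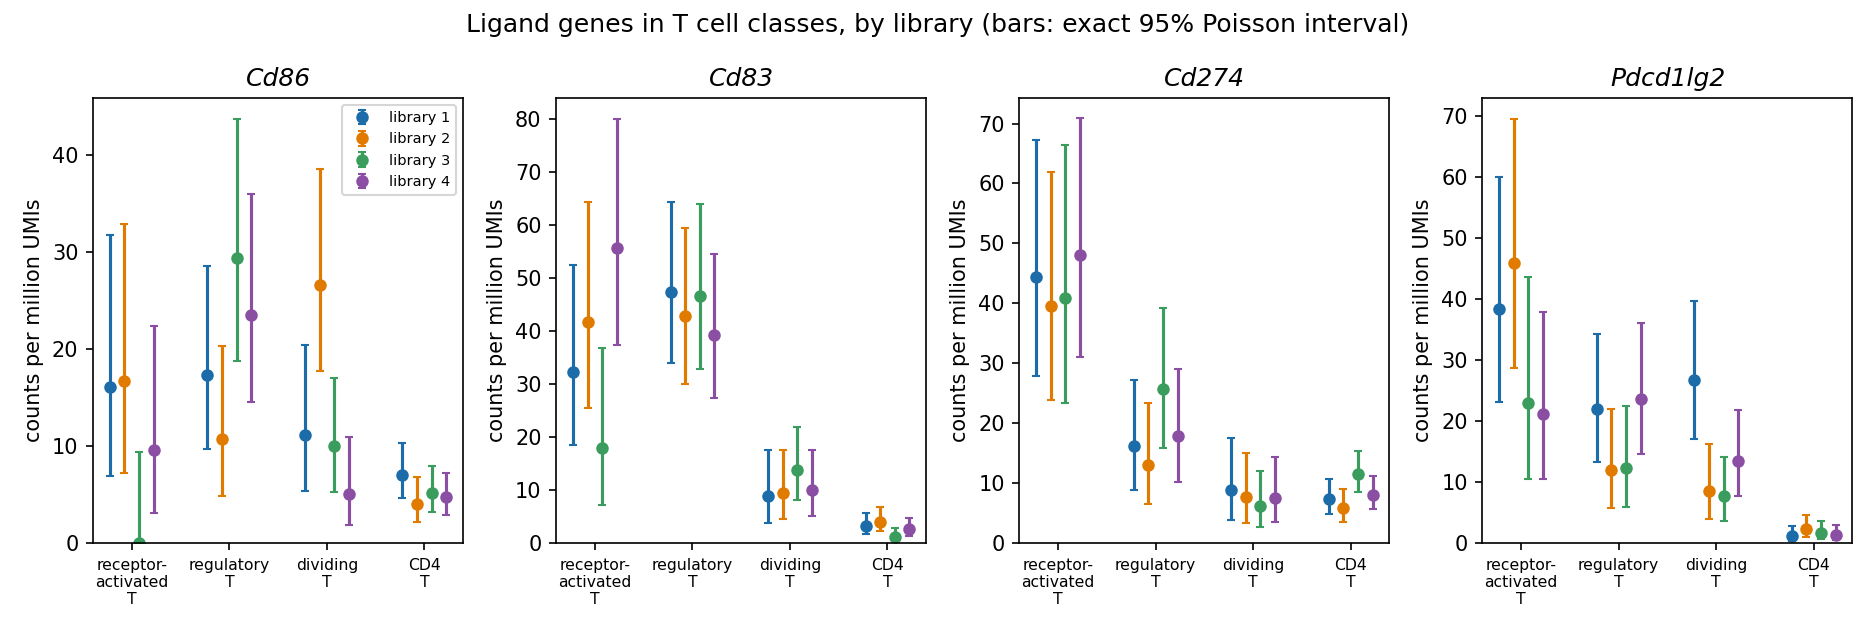
Level of Cd86, Cd83, Cd274 and Pdcd1lg2 in receptor-activated, regulatory, dividing and CD4 T cells, in CPM, with each point 1 library and bars the exact 95% Poisson interval. Cd274 and Pdcd1lg2 are highest in receptor-activated T cells, and Cd83 is separated from CD4 T cells in all 4 libraries of both receptor-activated and regulatory T cells.

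In follicular helper T cells (150 cells) 0 of 3 genes tested was called in either direction, beside 3.02% higher and 1.54% lower among all genes tested. Cd83 had 21 counts in follicular helper T cells, against 43 in CD4 T cells, a log2 ratio of 2.975 (2.148 to 3.759). Library 4, without a Cd83 count in follicular helper T cells, kept it from being called. Pdcd1lg2 had 23.8, 32.6, 6.53 and 16.1 CPM in follicular helper T cells, against 1.09, 2.32, 1.73 and 1.35 CPM in CD4 T cells, from 23 counts against 25, too few per library to be tested. With the stricter gate Cd83 and Pdcd1lg2 were called higher and Cd86 lower. Memory CD8 T cells (578 cells) were lower than CD8 T cells in Cd86 and Cd83 of 5 genes tested, beside 2.32% higher and 1.89% lower among all genes tested. Cd86 had 6.54, 5.11, 4.00 and 5.11 CPM in memory CD8 T cells, against 13.1, 13.3, 13.6 and 13.6 CPM in CD8 T cells, a log2 ratio of -1.39 (-1.96 to -0.86). The 4 CD8 T values lay close together and above every memory value. Cd83 was called from 8 counts in memory CD8 T cells, against 153 in CD8 T cells.

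Single cells seldom showed more than a few of these transcripts. After thinning to 1500 UMIs, a mean of 0.874 of the 10 genes was detected per mature DC, against 0.433 per resting B cell, with 0.812, 0.954, 0.909 and 0.844 in mature DC of libraries 1 to 4. At least 3 of the genes were seen in 6.05% of mature DC, against 0.581% of resting B cells, and none in 42.4% of mature DC, against 63.5% of resting B cells. Unthinned, 47.8% of mature DC had at least 3 of the genes, against 6.84% of resting B cells. Receptor-activated B cells had a mean of 0.792, and receptor-activated T cells and regulatory T cells both 0.147, against 0.0337 in CD4 T cells.

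**Figure D5:**
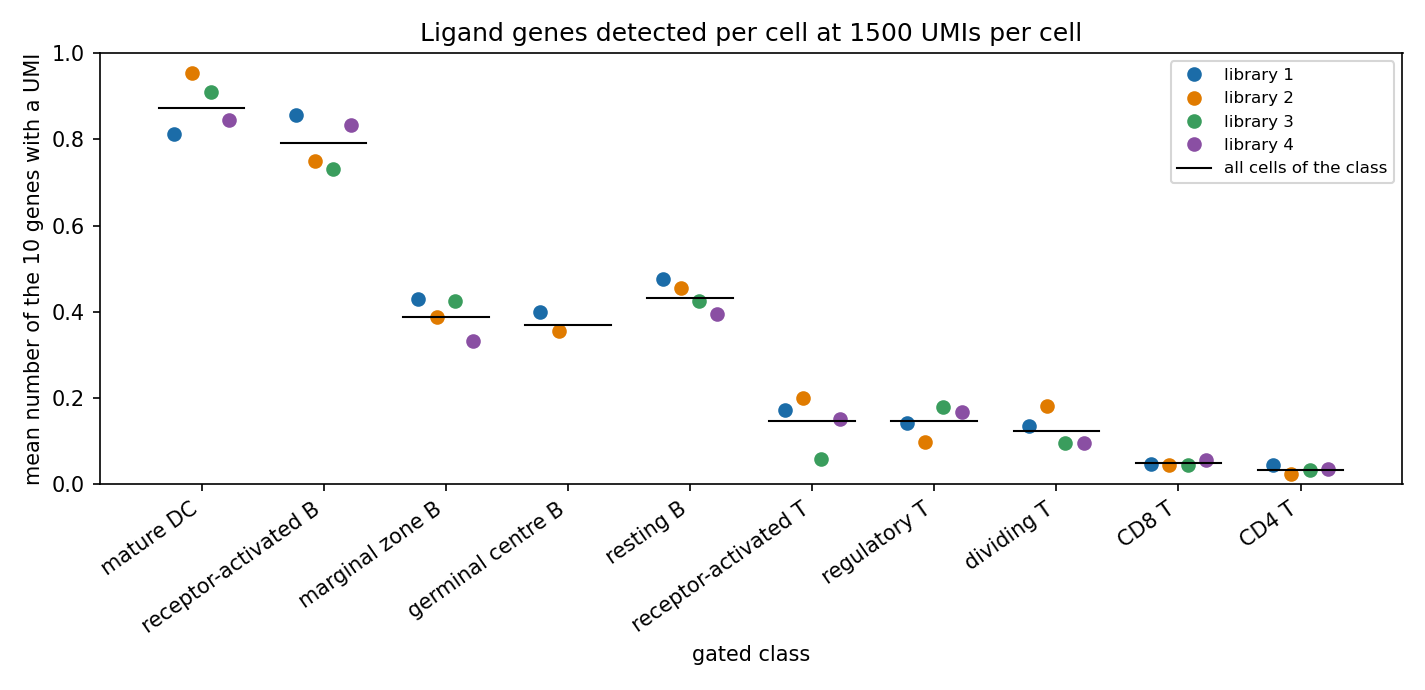
Mean number of the 10 genes with a UMI per cell, after thinning each cell to 1500 UMIs, in 10 classes. Points are libraries with at least 10 such cells and lines are all cells of the class. Mature DC libraries lie between 0.812 and 0.954, above every resting B library.

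Pairs of the genes were also counted within single mature DC. Cd40 and Cd83 were seen together in 27 of 380 thinned mature DC, where independent detection of 69 and 112 cells would give 20.3. Cd40 and Cd274 were seen together in 9 cells where 4.90 would be met by independence, and Cd83 and Icosl in 19 cells where 19.7 would be. These small numbers are a description, since cells of a library share their source.

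The receptors of these ligands were read from a list of 9 genes. In mature DC against resting B cells 4 of 6 tested were higher and 1 lower, beside 17.7% and 19.5% among all genes tested. Tnfrsf4 (OX40) stood at 207 CPM and Tnfrsf9 (4-1BB) at 73.5 CPM in mature DC, against 2.87 and 0.299 CPM in resting B cells. In regulatory T cells against CD4 T cells 5 of 9 were higher and 1 lower, beside 6.74% and 1.51% among all genes tested, with Tnfrsf4 at 486 CPM in regulatory T cells, against 16.3 CPM in CD4 T cells, and Ctla4, the inhibitory receptor for CD80 and CD86, at 182 CPM, against 6.72 CPM. In receptor-activated T cells 4 of 9 were higher, beside 3.36% among all genes tested, among them Tnfrsf9 at 48.2 CPM, against 5.89 CPM in CD4 T cells. Cd40lg, the ligand of CD40, stood at 103 CPM in receptor-activated T cells, against 80.6 CPM in CD4 T cells. Follicular helper T cells had 225 CPM of Icos, the receptor for ICOS ligand, against 39.0 CPM in CD4 T cells.

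Regulators that act upstream of many of these genes were read from a list of 16 NF-kappaB and interferon factors. In mature DC 9 were higher and 1 lower than in resting B cells, beside 17.7% higher and 19.5% lower among all genes tested. The median log2 ratio of those tested was 1.29, against -0.10 over all genes tested. Relb, a subunit of the non-canonical NF-kappaB pathway, stood at 729 CPM in mature DC, against 52.6 CPM in resting B cells, and Traf1, a signalling adaptor of TNF receptors, at 701 CPM, against 27.7 CPM. In germinal centre B cells 10 of 16 were lower and 1 higher than in resting B cells (median -0.91, against -0.05 over all genes), beside 21.7% lower and 19.8% higher among all genes tested. Irf4 stood at 7.43 CPM in germinal centre B cells, against 30.6 CPM in resting B cells of the same libraries. In receptor-activated T cells 7 of the 14 outside the gate panel were higher than in CD4 T cells and none lower. Among all genes tested, 3.36% were higher and 2.16% lower. The 7 included Rel at 228 CPM, against 47.5 CPM, and Tnfaip3, an inhibitor of NF-kappaB, at 63.6 CPM, against 12.0 CPM.

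Counts in other families of ligands were mixed. Among all genes tested in mature DC against resting B cells, 17.7% were higher and 19.5% lower. Of 15 genes of other B7, butyrophilin, nectin and related ligands, 11 could be tested in mature DC against resting B cells, and 4 were higher and 4 lower (median log2 ratio -0.04, against -0.10 over all genes tested), with Icam1, an adhesion ligand, at 354 CPM in mature DC, against 31.4 CPM in resting B cells, and Btla at 5.35 CPM, against 168 CPM. Of 13 other TNF family ligands 5 could be tested, and 1 was higher and 3 lower, with Ltb, a lymphotoxin subunit, at 31.8 CPM in mature DC, against 1084 CPM in resting B cells. Of 8 dendritic cell maturation genes outside the gate panel all 8 were higher, among them Ccl17, a chemokine for T cells, at 227 CPM in mature DC, against 0.180 CPM in resting B cells. The median log2 ratio of the 8 ligand genes themselves was 1.46.

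Profiles of the 10 genes over 56 class-by-library sums were set beside those of 7041 genes by Pearson's r on the log scale, as a description, since the sums share libraries and depth. The gene most like Cd40 was Il4i1 (r = 0.941), an interleukin 4-induced amino acid oxidase gene used in the mature DC gate, followed by Icosl (0.916), and that most like Icosl was Trim7 (0.952). Cd83 was most like Swap70 (0.870) and Rel (0.868). Cd274 was most like Nr4a3 (0.753) and Pdcd1lg2 most like Irf4 (0.771). Nr4a3 and Irf4 are panel genes of both receptor-activated gates, whose sums are among the 56, so the gating can shape these values. Cd274 and Pdcd1lg2 themselves had an r of 0.374. Cd80 was most like Adap1 (0.827) and Cd86 most like Snx8 (0.852), and the pair of CD28 ligand genes had an r of 0.340.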

How the data were processed

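Single-cell 3′ libraries (10x V3) were deposited as 1 matrix of raw UMI counts, 31053 genes by 30824 barcodes, made with cellranger 5.0.0 per the file headers and build mm10 per the submitters' processing notes. Library totals ran from 39589629 to 53643414 UMIs. Kept barcodes had 300 or more genes and no more than 10% of UMIs from mitochondrial genes. Cells were classed with 22 marker panels (2 panel genes for the T or B lineage, 3 for a class). Cells that passed panels of more than 1 lineage, or tied between panels outside the T and B lineages, were left out. This can remove doublets across lineages that show enough panel genes, but not those within the T or B lineage. Gate thresholds were chosen after seeing the data, and the members and lists were chosen with earlier results of these data known.

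Counts were summed per class and library, scaled to 1000000 UMIs (CPM), and compared by the 1.5-fold rule in 12 contrasts, with no significance test: 1 matrix whose libraries are not assigned to treated or control mice gives no replicates of a group. For the same reason the planned edgeR test of treated against control mice was not made. All 10 members are named, with up to 3 called genes of the largest change per list and contrast and the 3 most alike genes per member. Alternatives were the cell filter, gate, Scrublet (scanpy 1.11.5), TMM (edgeR 4.0.16), count filter, fold, thinning and leaving out libraries. Python 3.11.15, numpy 2.4.6, pandas 2.3.3 and scipy 1.17.1 were used. Promoters of Cd86, Cd40, Cd83, Tnfsf4, Tnfsf9 and Cd70 are not shown.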

Additional observations from a re-analysis of the deposited data

How the results depend on the processing

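Of 456 values of the 38 called ratios under alternatives, 397 kept their direction and call, 56 kept the direction only and 3 reversed. The reversed ones were Cd80 in mature DC against cDC1 with thinned cells (log2 -0.42 with 1 count added to each class) and Tnfsf9 in marginal zone against resting B cells with the stricter gate (0.74) and with thinned cells (1.28). Thinning to 1500 UMIs gave 3 called members for mature DC against cDC1, 3 for receptor-activated B cells, 0 for marginal zone B cells, 2 of 2 that could be tested for regulatory T cells and 1 of 2 for memory CD8 T cells. It gave 0 for receptor-activated T cells and 0 for dividing T cells because 0 genes were left to test. The stricter gate gave 5 for mature DC against resting B cells, 2 for regulatory T cells and 3 for follicular helper T cells. The stricter cell filter (500 genes, 5% mitochondrial) gave 3 for receptor-activated B cells, 0 for marginal zone B cells and 1 for memory CD8 T cells. A fold of 2 gave 3 for cDC1, 0 for receptor-activated B cells and 1 for memory CD8 T cells. No filter on low counts gave 8 for cDC1, 5 for dividing T cells and 4 for follicular helper T cells. At least 3 expected counts in each class, an alternative chosen after seeing the data, gave 3 for cDC1 and 0 for marginal zone B cells. It ended 9 of the 38 calls: Cd80 in all 4 mature DC contrasts, Cd274 against cDC1, Pdcd1lg2 in mature DC and in receptor-activated T cells against CD4 T cells, and Tnfsf9 in marginal zone B cells and dividing T cells. The cause of these moves was not tested beyond the counts left. Leaving out 1 library gave 2 to 4 called members for mature DC against resting B cells, 2 to 3 against monocytes, 6 to 7 against CD4 T cells, 1 to 2 for receptor-activated B cells, 0 to 1 for marginal zone B cells, 3 to 4 for receptor-activated T cells, 2 to 4 for dividing T cells and 0 to 1 for follicular helper T cells. TMM scaling changed no called member and shifted all log2 ratios by 0.43 against cDC1, 0.46 against monocytes, -0.30 in receptor-activated B cells, -0.11 in receptor-activated T cells, -0.24 in regulatory T cells, -0.20 in dividing T cells and -0.30 in follicular helper T cells. Over all genes tested, TMM gave 2511 higher and 513 lower calls against cDC1 (without it 1861 and 927), 1327 and 629 against monocytes (843 and 949), 93 and 656 in receptor-activated B cells (236 and 429), 244 and 279 in receptor-activated T cells (313 and 201), 425 and 260 in regulatory T cells (644 and 144), 1569 and 1207 in dividing T cells (1973 and 836) and 145 and 276 in follicular helper T cells (280 and 143). Genes detected per cell were 1.49 at 3000 UMIs and 2.46 unthinned in mature DC, against 0.807 and 1.01 in resting B cells. No paired analysis was possible because the mouse numbers in the labels cannot be matched to libraries; ratios between classes were already taken within each library.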

Other observations

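Levels of a few of the genes fell into separate pairs of libraries within a class. Cd83 had 169, 169, 89.6 and 81.5 CPM in resting B cells of libraries 1 to 4, and 149, 138, 68.6 and 70.6 CPM in marginal zone B cells, so libraries 1 and 2 were the higher pair in both. The highest library was 1.96 times the lowest in resting B cells with 10 CPM added to both, a ratio reached by 18 of 2594 genes (0.694%), and 2.02 times in marginal zone B cells, reached by 57 of 2830 genes (2.01%).

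In the same resting B cells, 8 receptor activation panel genes together had 98.7, 92.7, 79.1 and 75.0 CPM, and 12 AP-1 and heat shock genes, a list chosen after seeing the data, had 1133, 1205, 1392 and 1393 CPM. Median depth was 3804, 3648, 3741 and 3664 UMIs. Their part in the Cd83 levels was not tested.

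In mature DC the pairs ran the other way for the CD28 ligand genes and Cd274. Cd86 had 39.3, 38.1, 90.9 and 82.9 CPM, Cd274 31.4, 31.5, 63.0 and 69.1 CPM and Cd80 15.7, 9.19, 25.8 and 40.0 CPM in libraries 1 to 4, all higher in libraries 3 and 4. Icosl was higher in libraries 1 and 2, at 181 and 147 CPM, with 90.9 and 107 CPM in libraries 3 and 4. Such spreads were common in this small class: 10.3% of 3126 genes had a ratio as large as Cd86 (2.10) and 14.8% one as large as Cd274 (1.91). Germinal centre B cells numbered 132, 132, 5 and 6, and plasma cells 17, 24, 1 and 1, in libraries 1 to 4.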
